A study of Mus musculus with 6 samples.

Results

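The TRIM genes, a large family that mostly encodes ubiquitin ligases, were examined in mouse HOXB-8 cells with and without an Irf2 knockout. Members were all mouse genes whose symbol is Trim followed directly by a number, pseudogenes left out, with a count of 10 or more in at least 3 of the 6 libraries. Of 68 TRIM genes matched among the 36528 gene IDs counted, 39 met that rule, and they lie on 14 chromosomes. The 29 others included 14 genes with no read in any library and 15 with some reads, of which no library held more than 10 for any gene. Just inside the count rule were Trim17, whose third-highest count was 16, Trim30d with 23 and Trim67 with 27. Just outside it were Trim30b and Trim47, both with a third-highest count of 5.

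HOXB-8 cells are bone marrow progenitors kept dividing in culture by a homeobox transcription factor, and the extraction notes call the lines iMACs. The group labelled Parental (n = 3 libraries) is Irf2 wild type and received a control guide RNA named Luc. The group labelled IRF2_KO (n = 3 libraries) is Irf2 knockout and received the guide named gRNA2. Irf2 encodes interferon regulatory factor 2, a transcription factor that binds many interferon-responsive promoters. Neither the clonality of the lines nor whether replicate libraries represent separate cultures is given in the sources used here. The p-values thus cover the spread among these 6 libraries alone, part of which may be technical.

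Most TRIM proteins share an amino-terminal tripartite motif, a RING domain that recruits ubiquitin-conjugating enzymes followed by B-box domains and a coiled coil, and differ in their carboxy-terminal domains, which select targets. Some members, such as Trim14, lack the RING domain. Many members with a SPRY domain at that end bind viral components or tune the signalling of virus sensors, and a number of these genes are induced by interferon. Members of the TIF1 subgroup instead carry chromatin-reading domains and act as transcriptional co-regulators.

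Total counts were 29070160 to 39925038 per library, and 3 counts corresponded to 0.0751 to 0.103 reads per 1000000 counted reads (CPM). Irf2 itself measured 41.1, 42.4 and 41.1 CPM in Parental and 40.3, 37.0 and 40.1 CPM in IRF2_KO (log2 fold change -0.08, SE 0.05, edgeR quasi-likelihood adjusted p = 0.209), so that its count does not check the label. Hoxb8 averaged 127 ± 2.08 CPM in Parental and 135 ± 8.95 CPM in IRF2_KO (SD, n = 3 each), and the progenitor markers Cd34, Meis1 and Hoxa9 were at or near 0 in both groups. Among 10 macrophage markers, 8 of the 9 tested were higher in IRF2_KO, where 23.6% of all genes tested were called higher and 23.6% lower, with summed levels of 566 to 576 CPM in Parental and 1671 to 1675 CPM in IRF2_KO. Among 10 progenitor markers, 4 of the 6 tested were lower, with sums of 1120 to 1130 CPM in Parental and 870.3 to 877.8 CPM in IRF2_KO. The 4 were Mycn (82.7 to 4.42 CPM), Kit (8.04 to 0.827 CPM), Flt3 (17.7 to 9.83 CPM) and Myb (644 to 474 CPM). Of 10 neutrophil and granule markers, all tested, 3 were higher and 3 lower, Elane most (2989 to 924 CPM), with sums of 11315 to 12319 CPM in Parental and 9392 to 10872 CPM in IRF2_KO. Lymphoid markers summed to 0.148 to 0.298 CPM and 0.269 to 0.803 CPM, and 5 of these 10, Pax5, Cd3e, Cd4, Ncr1 and Klrb1c, had no read in any library. The part of a shift in cell state or makeup in the TRIM results was not tested, and in bulk libraries more cells of a type and more RNA per cell cannot be told apart.

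The largest differences in the family were rises of chromosome 7 genes in IRF2_KO, led by the Trim30 paralogs, which were at or near 0 in Parental. All 39 members were tested in a fit over 13353 genes. A call is an adjusted p under 0.05. Higher in IRF2_KO were 16 members (41.0%), against 23.6% of all genes tested, and lower were 9 members (23.1%), also against 23.6% of all genes. At 2-fold or more, 7 members were higher (17.9%, against 4.79% of all genes) and 2 were lower (5.13%, against 2.26%). The 7 were Trim30a, Trim30c, Trim30d, Trim12a, Trim12c, Trim21 and Trim56, and the 2 were Trim9 and Trim26. The median log2 fold change was 0.12 over the members and -0.01 over all genes tested, and the median size regardless of sign was 0.35 and 0.18. In all 25 called members the 3 Parental libraries did not overlap the 3 IRF2_KO libraries, which also held for 95.9% of the 6296 genes called over the whole table and is not particular to the family. Because a member could enter the list through the IRF2_KO libraries alone, as Trim30a, Trim30c and Trim30d did, the counts and the median describe the members and support nothing further.

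**Figure D1:**
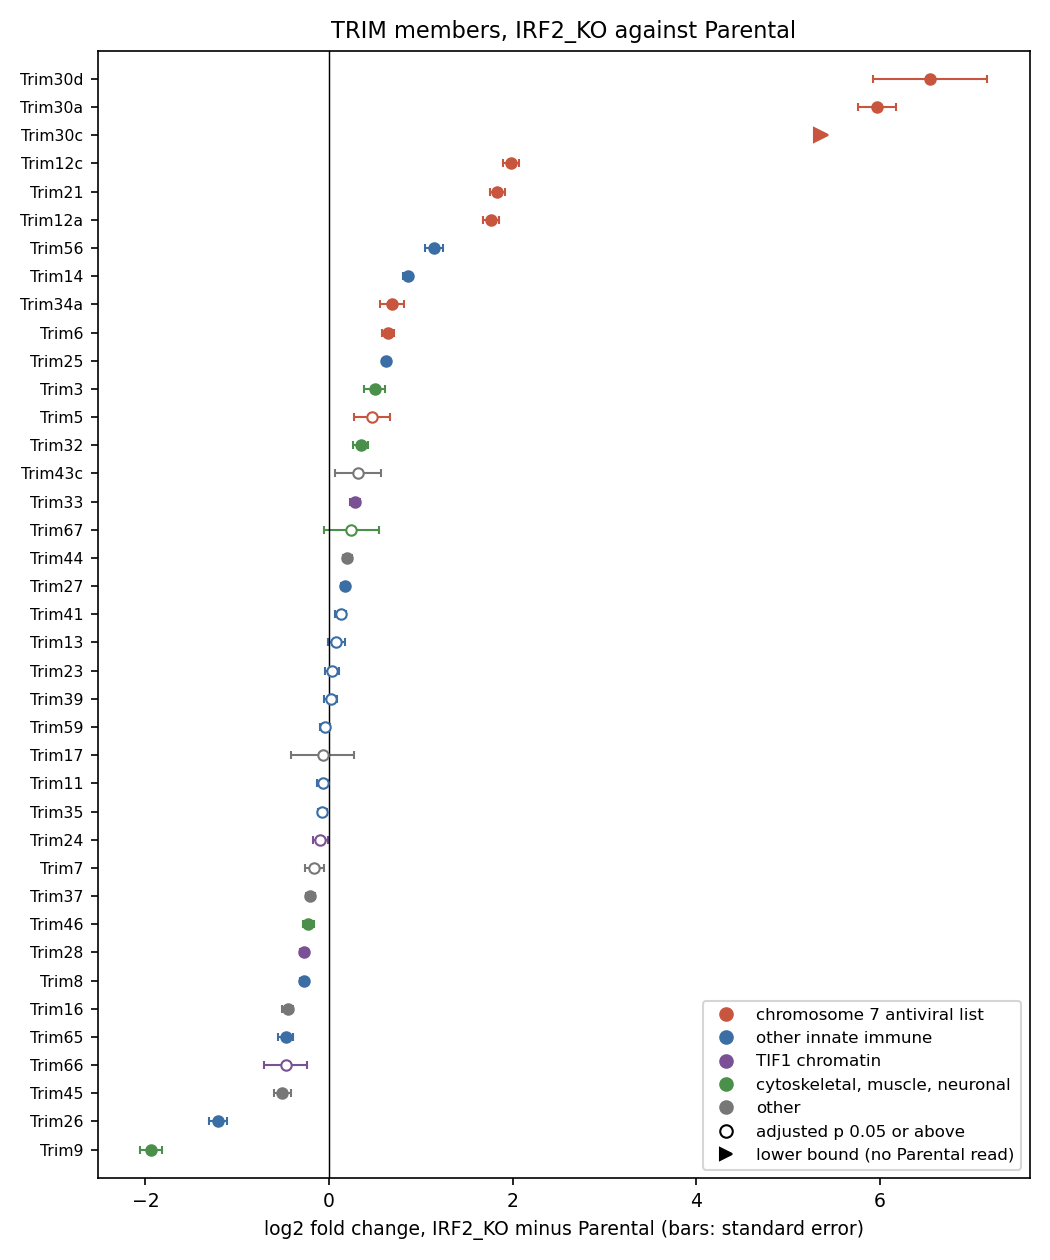
Log2 fold change (IRF2_KO minus Parental) of the 39 members, ordered by size, with bars of 1 standard error; filled points passed the test and the triangle is a lower bound. The chromosome 7 genes Trim30d, Trim30a and Trim30c lie far to the right, and Trim9 (-1.94) and Trim26 (-1.21) lie farthest to the left.

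A list of antiviral TRIM genes of chromosome 7 holds 12 genes, of which 9 met the count rule. Of these 9, 8 were higher (88.9%, against 23.6% of all genes tested) and 0 were lower, with a median log2 fold change of 1.83. At 2-fold or more, 6 were higher (66.7%, against 4.79% of all genes). Among the 6, Trim30a, Trim30c and Trim30d met the count rule through the IRF2_KO libraries alone. The 30 other members had 8 higher (26.7%) and 9 lower, with a median of -0.06, beside 23.6% of all genes in each direction. Trim28 (-0.27, lower), Trim66 (-0.47, not passed) and Trim3 (0.49, higher) are among those 30, although they too lie on chromosome 7. The list was chosen with earlier results of these data known, so this contrast is a description. Of the 12 genes, Trim30b, Trim34b and Trim68 did not reach the count rule.

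Trim30a, which in mouse macrophages restrains Toll-like receptor signalling by directing the adaptors TAB2 and TAB3 to degradation, was counted 4, 3 and 8 times in Parental and 278, 230 and 272 times in IRF2_KO. On the CPM scale these were 0.101, 0.0890 and 0.199 against 9.34, 8.02 and 8.09. All 3 IRF2_KO libraries stood far above all 3 Parental libraries, which held only a handful of reads each. The gene rose by 5.97 on the log2 scale (SE 0.21, edgeR quasi-likelihood adjusted p = 1.74e-13), a 62.5-fold difference.

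Its paralog Trim30d had 1, 0 and 0 reads in Parental and 43, 23 and 41 reads in IRF2_KO. With a single read in the Parental group, the ratio of depth-scaled reads was 132 with a 95% exact interval of 23.2 to 5258, which covers counting error only. The rise passed the test (edgeR quasi-likelihood adjusted p = 1.28e-07), with a fitted log2 fold change of 6.55 and the largest standard error, 0.62, of the members drawn with a point. Trim30c had no read in any Parental library and 31, 34 and 35 reads in the IRF2_KO libraries. It was at least 41.1-fold higher in IRF2_KO, counted against a floor of 3 reads over the Parental group (log2 at least 5.36, edgeR quasi-likelihood adjusted p = 1.19e-07). Trim30b, which is no member of the list by count and was too low to test, had 0 reads in Parental and 6, 10 and 5 in IRF2_KO. Against the same floor that is at least 8.63-fold higher.

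Summed over these 4 paralogs, the Parental libraries held 5, 3 and 8 reads, or 0.0890 to 0.199 CPM, and the IRF2_KO libraries held 358, 297 and 353 reads, or 10.4 to 12.03 CPM. Every IRF2_KO library therefore carried reads of each of the 4 genes, and no Parental library carried more than 8 reads of them together. Trim30a supplied most of the IRF2_KO reads. Reads that align to several places were not counted, and the read length is not given. Of their transcript sequence, 94.0% of the 50-base windows of Trim30a transcripts, 92.5% of Trim30d, 99.3% of Trim30c and 99.5% of Trim30b occur in no transcript of another gene.

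Trim12c and Trim12a are mouse relatives of Trim5, the gene whose primate form blocks incoming retroviral capsids. Trim12c was at 10.9, 8.52 and 10.4 CPM in Parental and at 42.4, 35.7 and 40.1 CPM in IRF2_KO (log2 fold change 1.98, SE 0.09, edgeR quasi-likelihood adjusted p = 2.32e-12). Trim12a was at 4.75, 5.08 and 4.35 CPM in Parental and at 16.2, 16.4 and 15.5 CPM in IRF2_KO (log2 fold change 1.76, SE 0.09, adjusted p = 1.43e-11). Both genes rose more than 3-fold, from levels that were already well above the count floor in Parental. Trim5 was at 1.62, 0.980 and 1.44 CPM in Parental and 1.85, 1.88 and 1.90 CPM in IRF2_KO. Its groups did not overlap, Parental replicate 2 was the lowest library, and the difference did not pass (log2 fold change 0.46, SE 0.19, edgeR quasi-likelihood adjusted p = 0.0584). The value moved with single libraries: it was 0.61 and passed without Parental replicate 1 (adjusted p = 0.0315), and it was 0.30 without Parental replicate 2 (adjusted p = 0.231). Of the 50-base windows of Trim5 transcripts 63.7% are unique to it, and 23.5% also occur in Trim12c, so that uniquely aligned reads leave out part of both genes.

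Trim21 encodes a cytosolic antibody receptor that marks antibody-coated virus for the proteasome, and lies on the same chromosome outside the cluster. It was at 4.95, 5.91 and 5.67 CPM in Parental and at 19.9, 19.6 and 19.1 CPM in IRF2_KO. The IRF2_KO libraries lay close together and far above the Parental ones (log2 fold change 1.83, SE 0.08, edgeR quasi-likelihood adjusted p = 4.64e-12). Trim6, a ligase whose unanchored ubiquitin chains activate the kinase IKK-epsilon, was at 13.3, 13.1 and 12.7 CPM in Parental and at 20.46, 20.01 and 20.63 CPM in IRF2_KO. Its rise was smaller, with no overlap (log2 fold change 0.65, SE 0.07, adjusted p = 3.17e-07). Trim34a was at 2.47, 2.20 and 2.16 CPM in Parental and 3.86, 3.59 and 3.57 CPM in IRF2_KO (log2 fold change 0.69, SE 0.13, edgeR quasi-likelihood adjusted p = 0.000385). Its windows are 60.2% unique and 39.8% shared with Trim34b, which had 0, 3 and 2 reads in Parental and 0, 0 and 1 in IRF2_KO. Trim68 had at most 1 read in any library.

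**Figure D2:**
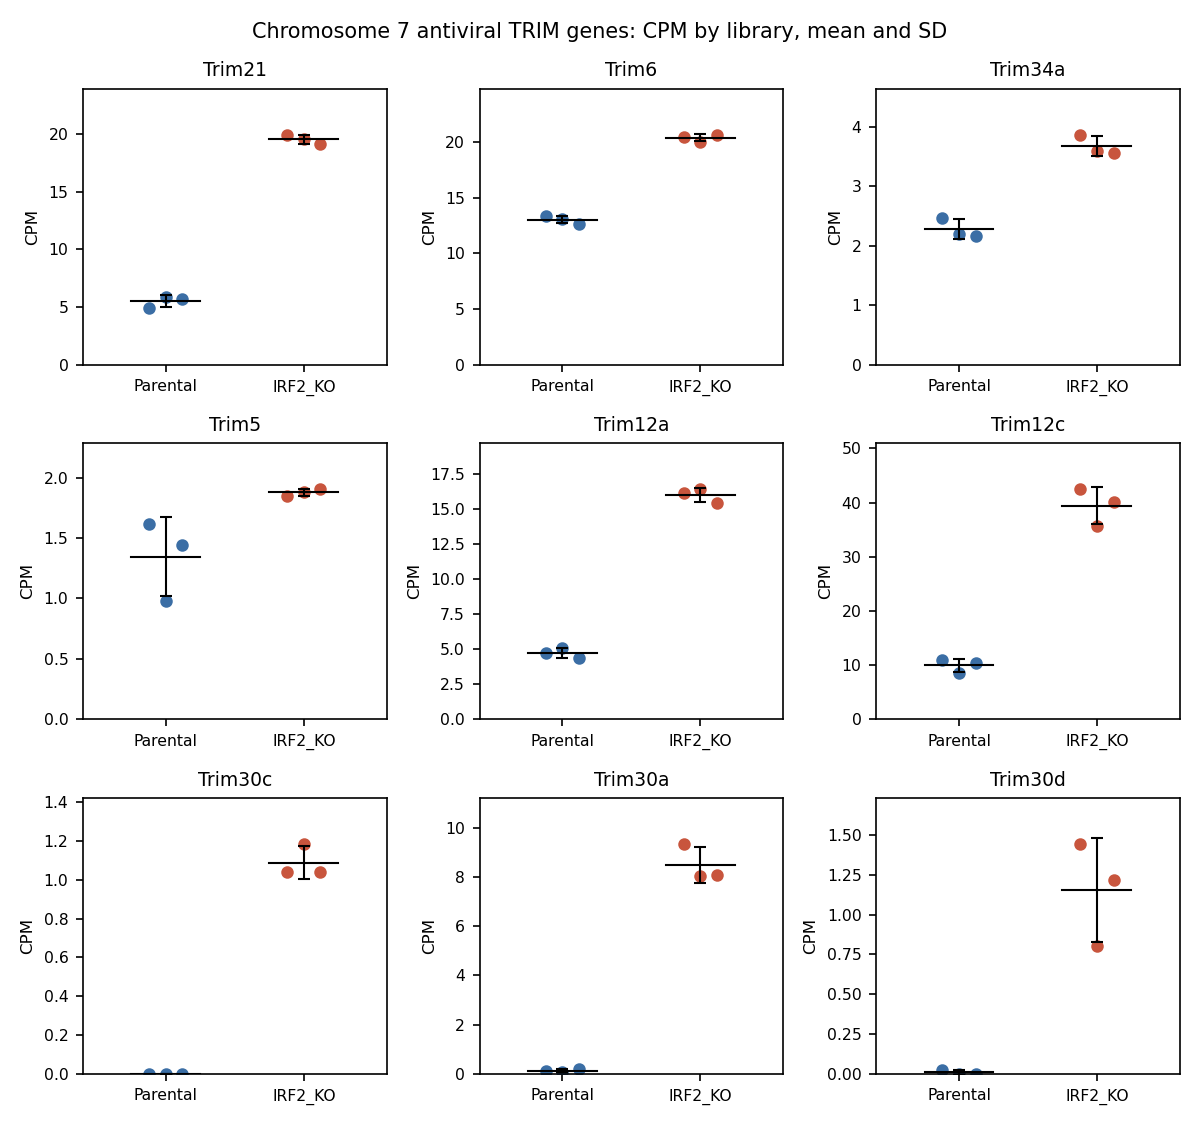
CPM in each library (points), group mean (long line) and SD (bars, n = 3) for the 9 members of the chromosome 7 list, each on its own linear axis from 0. In 8 panels the IRF2_KO points lie clear above the Parental points, and the Parental points of Trim30c are all at 0; Trim5 shows the narrowest separation.

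Apart from Trim21 and Trim68, these genes form a cluster at chr7:104218795-104507853 (GRCm38), a span of 289 kb. In chromosomal order, log2 fold changes were 0.65 for Trim6, 0.69 for Trim34a, 0.46 for Trim5, 1.76 for Trim12a and 1.98 for Trim12c. Beyond Trim12c they were at least 3.11 for Trim30b and at least 5.36 for Trim30c, then 5.97 for Trim30a and 6.55 for Trim30d. The differences were thus below 1 on the log2 scale in the 3 genes at the Trim6 end and above 3 in the 4 Trim30 genes at the other end, with Trim34b too low to place. The order among the Trim30 genes is not resolved, since 2 values are lower bounds and that of Trim30d rests on 1 Parental read. The Trim30 genes also had the fewest Parental reads, and a fold from so few reads is imprecise.

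Of 19 annotated genes in the span, 9 are not TRIM genes, and the 3 of these that were counted had at most 22 reads in a library. Gm38525, whose annotated span overlaps Trim30b, had 0 reads in every Parental library and 10, 22 and 8 reads in the IRF2_KO libraries. Gm15133, which overlaps Trim12a, had 0 to 7 reads. Within 200 kb on either side, olfactory receptor genes were almost all at 0, and Ubqln5 was at 0.578 CPM in Parental and 0.379 CPM in IRF2_KO (log2 fold change -0.55, edgeR quasi-likelihood adjusted p = 0.248).

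**Figure D3:**
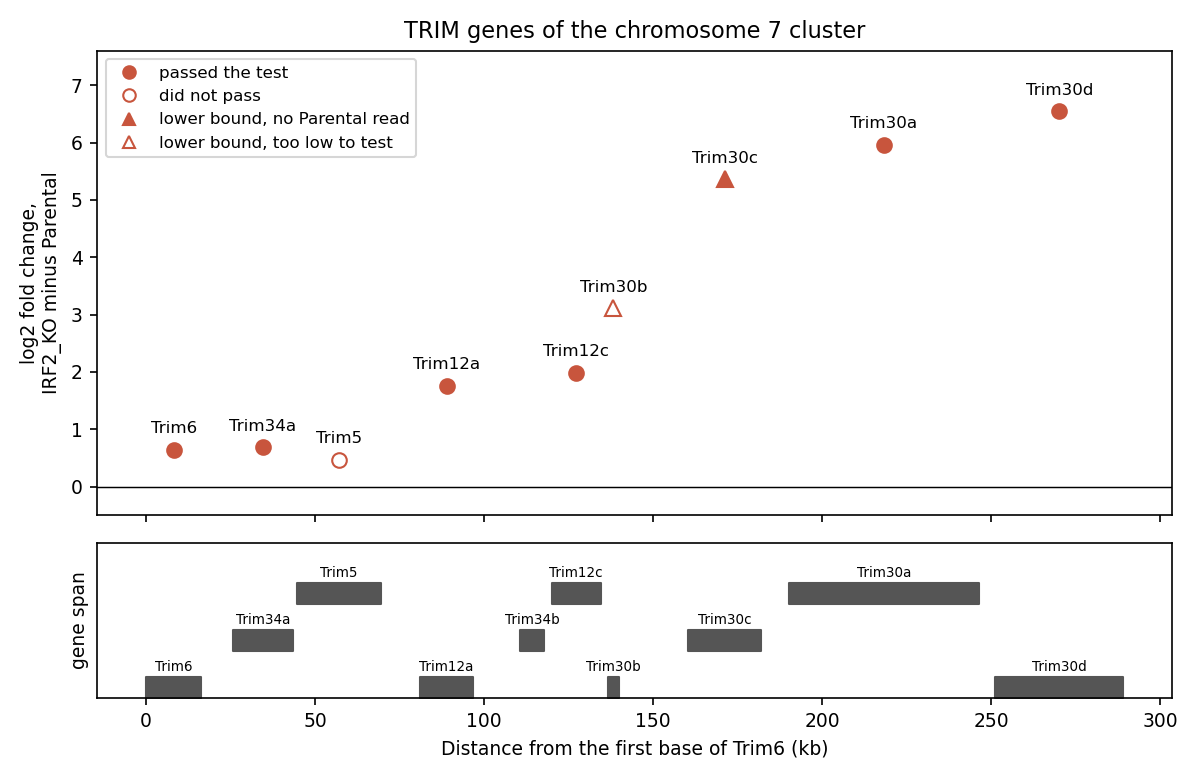
Log2 fold change (upper panel) of the TRIM genes of the chromosome 7 cluster against distance in kb from the first base of Trim6, above the span of each gene (lower panel). Triangles are lower bounds for the 2 genes with no Parental read, the open triangle was too low to test, and Trim34b has a span but no point because its reads were too few; Trim6, Trim34a and Trim5 lie below 1 and the 4 Trim30 genes above 3.

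The promoter sequences of these genes are shown because interferon regulatory factors bind repeats of GAAA. The motif searched was GAAANNGAAA, which reads TTTCNNTTTC on the other strand, on both strands of RefSeq promoters of 300 bases (250 before the start site to 50 after it, GRCm38.p6). Of all 32851 promoters 3.44% held a match, as did 3.81% of the 9884 tested genes with an entry, 5.79% of the 2416 called higher and 3.67% of the 2454 called lower. Promoter entries matched 29 of 39 TRIM members, of which 8 held a match (27.6%). These were Trim5, Trim12a, Trim12c, Trim21, Trim30a, Trim30d and Trim34a, all on the chromosome 7 list, and Trim26 on chromosome 17. Of members with an entry, the motif was in 6 of 13 that were higher, 1 of 6 that were lower and 1 of 10 that did not pass. The windows below run 5′ to 3′ on the strand of the gene, with the bases that match the motif in capitals.
Trim30a, chr7:104465200-104465269, minus strand: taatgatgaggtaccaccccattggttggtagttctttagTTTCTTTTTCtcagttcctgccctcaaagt
Trim30d, chr7:104507861-104507930, minus strand: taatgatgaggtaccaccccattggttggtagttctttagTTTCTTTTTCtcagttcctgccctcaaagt
Trim12a, chr7:104315456-104315525, minus strand: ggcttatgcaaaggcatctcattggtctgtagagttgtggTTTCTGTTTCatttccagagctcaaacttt
Trim12c, chr7:104353349-104353418, minus strand: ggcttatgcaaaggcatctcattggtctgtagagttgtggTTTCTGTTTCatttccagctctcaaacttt
Trim5, chr7:104288126-104288195, minus strand: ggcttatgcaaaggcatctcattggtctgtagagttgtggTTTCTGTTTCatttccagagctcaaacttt
Trim34a, chr7:104244427-104244496, plus strand: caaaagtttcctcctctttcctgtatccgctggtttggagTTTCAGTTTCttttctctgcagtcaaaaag
Trim21, chr7:102565434-102565509, minus strand: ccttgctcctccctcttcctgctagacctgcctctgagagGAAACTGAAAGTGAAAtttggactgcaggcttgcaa
Trim26, chr17:36836946-36837021, plus strand: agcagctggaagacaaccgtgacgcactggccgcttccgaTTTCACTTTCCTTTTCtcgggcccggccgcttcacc

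The windows of Trim30a and Trim30d are identical, and their promoters share a run of 118 bases that holds the motif. The windows of Trim5 and Trim12a are identical as well, within a shared run of 241 bases, although Trim12a rose by 1.76 on the log2 scale and the difference of Trim5 did not pass. The window of Trim12c matches those of Trim5 and Trim12a up to the end of the motif and differs only after it. Genes with such shared windows are therefore not independent instances of the motif. Counted from the annotated start site, with negative values upstream, the first matching base was at -36 in the Trim30a promoter shown, -41 in Trim30d, -29 in Trim12c, -49 in Trim5, and at 10 in both Trim12a and Trim34a. A further RefSeq promoter of Trim30a, at chr7:104446076-104446375 on the minus strand, also held a match, at 2. Trim21 held 2 overlapping matches, at 13 and 19, and Trim26 held 2 overlapping matches, at -160 and -154. Trim26 fell in IRF2_KO, while 6 of the 7 chromosome 7 members with a match rose. Over the whole chromosome 7 list, with or without a match, 8 of 9 members rose (88.9%). Trim30c and Trim6 were among the 8. Their promoters held no match, which says only that these letters are not in those 300 bases. A match is a description of sequence and shows no binding.

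Outside chromosome 7, 14 members belong to a list of other TRIM genes of innate immune signalling, of which 4 rose (28.6%), 3 fell (21.4%) and 7 did not pass, near the 23.6% of all genes called in each direction, with a median log2 fold change of 0.02. The members that rose most were Trim56, Trim14 and Trim25. Trim56, a ligase of the antiviral response, was at 10.5, 10.8 and 10.3 CPM in Parental and at 27.3, 19.3 and 23.2 CPM in IRF2_KO. Its IRF2_KO libraries were spread more widely than its Parental libraries, with no overlap (log2 fold change 1.15, SE 0.10, edgeR quasi-likelihood adjusted p = 3.83e-08).

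Trim14, a family member without a RING domain that acts at the mitochondrial adaptor MAVS, was at 45.7, 48.5 and 47.6 CPM in Parental and at 88.0, 86.0 and 82.7 CPM in IRF2_KO (log2 fold change 0.86, SE 0.05, edgeR quasi-likelihood adjusted p = 9.40e-11). Trim25, the ligase known for ubiquitinating the RNA sensor RIG-I, was at 136, 140 and 142 CPM in Parental and at 218, 213 and 212 CPM in IRF2_KO. The groups of both genes were tight and well apart (Trim25 log2 fold change 0.62, SE 0.04, edgeR quasi-likelihood adjusted p = 9.02e-10). The remaining rise in this list was small, 0.17 for Trim27.

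Trim26 was the member of this list that fell most. It was at 17.6, 19.7 and 18.0 CPM in Parental and at 8.87, 6.35 and 8.59 CPM in IRF2_KO, with every IRF2_KO library below every Parental one (log2 fold change -1.21, SE 0.10, edgeR quasi-likelihood adjusted p = 1.87e-08). Trim65, which ubiquitinates the RNA sensor MDA5, had a log2 fold change of -0.47, and Trim8, which acts in cytokine and NF-kappa-B signalling, had -0.27, and both passed. Values of the members of this list that did not pass lay between -0.07 for Trim35 and 0.12 for Trim41. Trim41 passed without Parental replicate 2 (0.18, edgeR quasi-likelihood adjusted p = 0.0182) and without IRF2_KO replicate 1 (0.15, adjusted p = 0.0252), and was 0.07 without Parental replicate 1 (adjusted p = 0.303).

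Among cytoskeletal, muscle and neuronal TRIM genes, 5 of 12 were members, of which 2 rose (40%), 2 fell (40%) and 1 did not pass. The share of all genes called was 23.6% in each direction. Trim9, a ligase best known from neurons, was at 7.42, 7.78 and 8.08 CPM in Parental and at 1.95, 2.02 and 2.08 CPM in IRF2_KO. It had the largest fall in the family, with libraries of each group close together (log2 fold change -1.94, SE 0.12, edgeR quasi-likelihood adjusted p = 2.16e-10). Trim3 and Trim32, which both carry NHL repeats, rose by 0.49 and 0.35 on the log2 scale. Trim46, a microtubule-bundling protein of the axon, had a log2 fold change of -0.23, but its span overlaps Krtcap2, which had 4383 to 5917 reads per library. Whether strand was used in counting is not given, so reads of such overlapping genes may not be told apart.

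The TIF1 group was represented by all 4 of its genes, with 1 higher (25%), 1 lower (25%) and 2 that did not pass. Both shares were near the 23.6% of all genes called in each direction. Trim28, the corepressor that KRAB zinc finger proteins recruit to silence retroelements, was at 562, 601 and 602 CPM in Parental and at 462, 510 and 490 CPM in IRF2_KO (log2 fold change -0.27, SE 0.05, edgeR quasi-likelihood adjusted p = 8.19e-05). The groups did not overlap, and the difference was 1.21-fold. Its span overlaps Gm31649, which had 362 to 632 reads per library. Trim33, a co-regulator of SMAD signalling, was at 72.1, 69.3 and 66.7 CPM in Parental and 91.9, 77.8 and 83.7 CPM in IRF2_KO (log2 fold change 0.28, SE 0.06, adjusted p = 0.000501). Trim24, a nuclear receptor co-regulator, was at 21.4, 19.9 and 19.2 CPM in Parental and at 21.3, 17.1 and 18.2 CPM in IRF2_KO, and its libraries overlapped (log2 fold change -0.10, SE 0.08, edgeR quasi-likelihood adjusted p = 0.344). The value of Trim24 depended on single libraries. It passed at -0.18 without IRF2_KO replicate 1 (adjusted p = 0.0478) and was -0.04 without IRF2_KO replicate 2 (adjusted p = 0.751) and -0.05 without Parental replicate 1 (adjusted p = 0.676). Trim66, at -0.47 with an adjusted p of 0.114, passed at -0.75 without IRF2_KO replicate 1 (adjusted p = 0.0164). It was -0.27 without Parental replicate 1 (adjusted p = 0.423) and -0.28 without IRF2_KO replicate 3 (adjusted p = 0.418).

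Of the 7 members on no functional list, 1 rose (14.3%), 3 fell (42.9%) and 3 did not pass. Of all genes tested, 23.6% were called in each direction. Trim44 rose by 0.20, and the falls were -0.51 for Trim45, -0.45 for Trim16, a protein of the autophagic response to damaged membranes, and -0.20 for Trim37, a ligase of peroxisomes and centrosomes. The values that did not pass were -0.16 for Trim7, -0.07 for Trim17 and 0.32 for Trim43c. Trim17 overlaps H2aw (166 to 225 reads) and Trim43c overlaps 9330159M07Rik (46 to 96 reads), and reads of each pair may not be told apart.

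**Figure D4:**
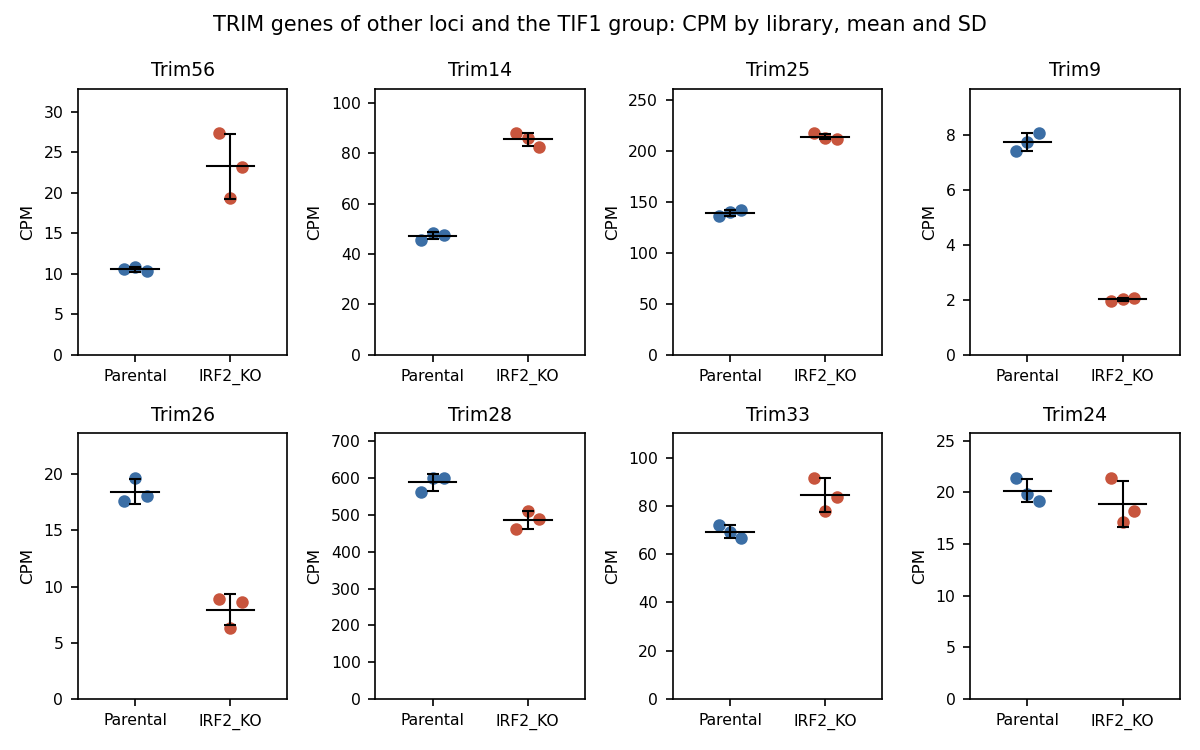
CPM in each library (points), group mean (long line) and SD (bars, n = 3) for Trim56, Trim14, Trim25, Trim9, Trim26, Trim28, Trim33 and Trim24, each on its own linear axis from 0. The groups are separate in 7 panels, higher in IRF2_KO for Trim56, Trim14, Trim25 and Trim33 and lower for Trim9, Trim26 and Trim28, and overlap for Trim24.

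Levels per length were compared on the deposited RPKM values. Trim28 ranked first in both groups, at 176 ± 6.44 RPKM in Parental and 147 ± 8.03 RPKM in IRF2_KO (SD, n = 3 each). It made up 36.3% to 37.7% of the summed RPKM of all members in the Parental libraries and 28.3% to 31.1% in the IRF2_KO libraries. Trim27 was next in both groups, at 46.9 and 53.0 RPKM. Trim25 moved from rank 5 (24.3 RPKM) to rank 3 (37.7 RPKM), and Trim14 from rank 11 (13.9 RPKM) to rank 4 (25.2 RPKM). Of the 38 neighbouring pairs in the order of levels, libraries overlapped in 19 pairs in Parental and 21 pairs in IRF2_KO, so that much of the order is not resolved.

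Most members of the chromosome 7 list moved up this order without reaching its top, while Trim5 went from rank 33 to 34. Trim28, which held the top, also lies on chromosome 7 but is not on the list. Trim12c went from rank 24 (2.59 RPKM) to rank 12 (10.3 RPKM), Trim12a from 25 (2.02 RPKM) to 14 (6.91 RPKM), and Trim21 from 26 (1.93 RPKM) to 15 (6.88 RPKM). Trim30a, with the largest read count of its paralogs, reached 2.05 RPKM from 0.0312 RPKM and ranked only 27 of 39 in IRF2_KO. Trim30c and Trim30d were at 0.734 and 0.288 RPKM in IRF2_KO. The chromosome 7 list took 2.12% to 2.30% of the members' summed RPKM in Parental and 6.51% to 7.03% in IRF2_KO. In the opposite direction, Trim26 went from rank 15 (5.21 RPKM) to 26 (2.25 RPKM). Members together held 0.191% to 0.200% of the counted reads of every library.

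**Figure D5:**
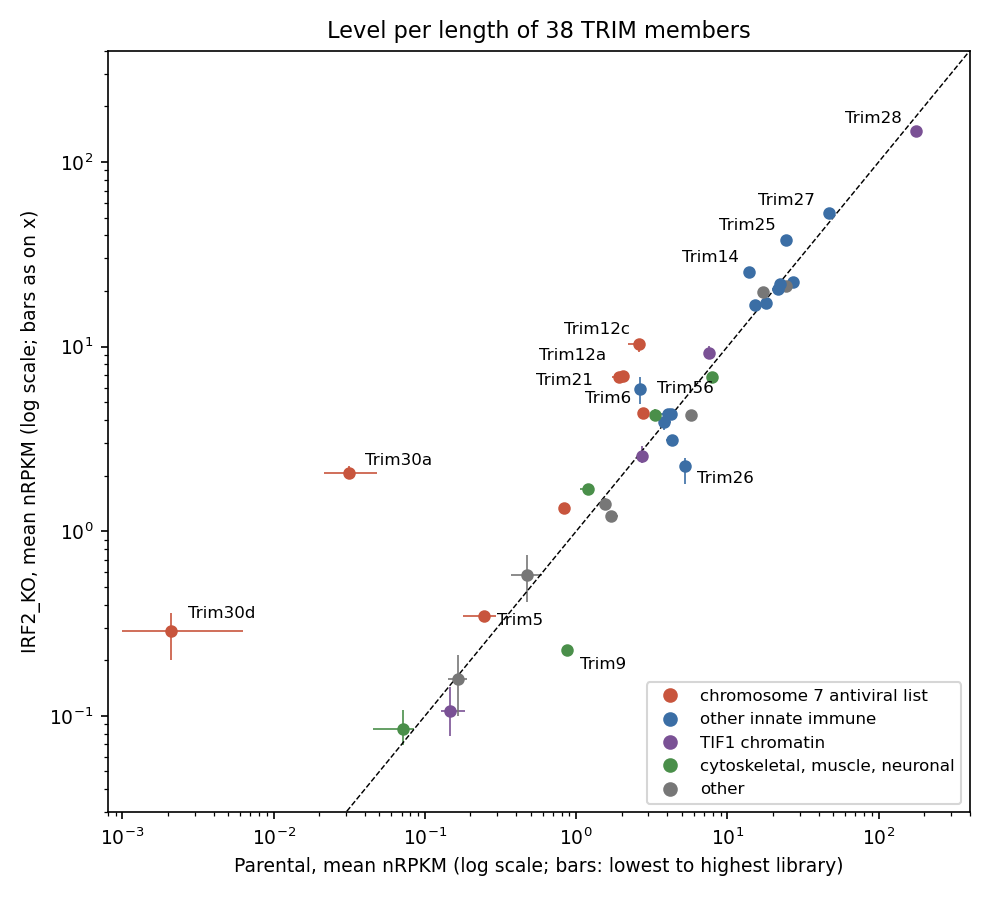
Mean RPKM of 38 members in Parental (x axis) and IRF2_KO (y axis), both on log scales, with bars from the lowest to the highest library and a dashed line of equal level. Trim30c is left out because it had no Parental read, and the Parental bar of Trim30d is cut at the axis because 2 of its libraries are at 0; Trim30a and Trim30d lie far above the line at low levels, and Trim28 lies at the top near it.

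The proteins that TRIM ligases work with were counted on 4 further lists. Of 8 family proteins with other names, 3 were tested. Pml, the scaffold of nuclear bodies, was at 64.1 CPM in Parental and 84.2 CPM in IRF2_KO (log2 fold change 0.40, edgeR quasi-likelihood adjusted p = 8.69e-06). Mefv, which encodes pyrin, was at 45.2 and 34.4 CPM (-0.40, adjusted p = 8.57e-06).

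On a list of activating (E1) and conjugating (E2) enzymes of ubiquitin or a ubiquitin-like modifier, 15 of 16 were tested, with a median log2 fold change of -0.02. Of these, 2 rose (13.3%) and 3 fell (20%), both below the 23.6% of all genes called in each direction. Both rises were 2-fold or more (13.3%, against 4.79% of all genes). The 2 that rose act in the attachment of ISG15, a ubiquitin-like modifier. Uba7, its activating enzyme, went from 47.9 ± 3.88 to 291 ± 6.69 CPM (SD, n = 3 each; log2 fold change 2.60, edgeR quasi-likelihood adjusted p = 7.35e-17). Ube2l6, its conjugating enzyme, went from 0.367 to 0.933 CPM (1.33, adjusted p = 0.000926). Ube2e1 and Ube2g2 had log2 fold changes of -0.37 and -0.25.

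Of 25 substrates and partners of TRIM ligases in innate signalling, 12 rose (48.0%, against 23.6% of all genes), 3 fell (against 23.6%) and 10 did not pass, and 7 rose by 2-fold or more (28.0%, against 4.79%), with a median log2 fold change of 0.13. The list was chosen with earlier results of these data known, so these shares are a description and support nothing further. Rigi, the gene of the RNA sensor RIG-I that Trim25 modifies, went from 9.24 ± 0.286 to 40.6 ± 1.41 CPM (SD, n = 3 each; 2.14, edgeR quasi-likelihood adjusted p = 1.59e-14). Isg15 went from 0.416 to 9.83 CPM (4.56, adjusted p = 7.41e-13), and Irf7, the interferon regulatory factor that amplifies type I interferon, from 0.487 to 9.21 CPM (4.24, edgeR quasi-likelihood adjusted p = 1.38e-12). Irf5 went from 8.71 to 18.1 CPM (1.05, edgeR quasi-likelihood adjusted p = 5.02e-09). Of the genes of the adaptors that Trim30a targets, Tab2 fell (-0.16, edgeR quasi-likelihood adjusted p = 0.00651) and Tab3 had 0.16 and did not pass (adjusted p = 0.121). Both values are RNA levels, whereas Trim30a acts on the proteins, and a link was not tested. Sting1, the adaptor of cytosolic DNA sensing, fell from 22.4 to 14.2 CPM (-0.66, edgeR quasi-likelihood adjusted p = 4.71e-07).

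Of 13 genes of the TRIM28 repressor complex, all tested, 3 rose (23.1%, against 23.6% of all genes), 1 fell (7.69%, against 23.6%) and 9 did not pass, with a median log2 fold change of -0.04. Cbx5, which encodes the heterochromatin protein HP1-alpha, went from 371 to 519 CPM (0.48, edgeR quasi-likelihood adjusted p = 1.06e-06). Chd3, a chromatin remodeller, and Atf7ip, a partner of SETDB1, rose by 0.86 and 0.17. Zfp57, the zinc finger protein that brings TRIM28 to imprinted regions, went from 2.31 to 1.02 CPM (-1.17, edgeR quasi-likelihood adjusted p = 0.000183). Setdb1, the histone methyltransferase of the complex, had 0.10 and did not pass (adjusted p = 0.0873).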

How the data were processed

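Per the submitters' processing notes, reads were aligned with GSNAP to GRCm38; the sources used here give no version, annotation or use of strand. Per the labels, a stranded total RNA kit was used, while the molecule label names polyadenylated RNA. Per the file headers, the authors deposited whole-number counts of uniquely aligned reads per Entrez gene and a size-factor-adjusted RPKM. Over 11860 genes with 20 or more counts, RPKM equalled the counts rescaled by a constant for the library and one for the gene.

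The groups were compared as labelled, 3 libraries against 3, without pairing, since the labels give no replicate numbers or batches. The replicate numbers named here were assigned in sample order within each group and do not come from the labels. Symbols came from a RefSeq table (31049 of 36528 IDs). CPM are counts over TMM-scaled library sizes. Genes were kept by filterByExpr and tested with the robust quasi-likelihood F-test of edgeR 4.0.16 in R 4.3.3, two-sided, with Benjamini-Hochberg adjustment over 13353 genes. The standard error is the log2 fold change over the square root of F. Intervals of read ratios are 95% Clopper-Pearson.

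The genes given in every library were the chromosome 7 list, members past 2-fold and the TIF1 genes Trim24, Trim28 and Trim33. From other lists, up to 4 genes with the smallest adjusted p are given as group means. Trim14, Trim25, Setdb1, Sting1, Tab2 and Tab3, the marker genes and the genes beside the cluster were named after their values were seen or for their place. The members and all lists were chosen with earlier results of these data known. The gene test was checked on simulated data. With changes of 1.25- to 4-fold put in, 15 of 184 calls were false. The test called 34 of 49 genes changed 1.25-fold, 43 of 50 at 1.5-fold, 42 of 48 at 2-fold and 50 of 50 at 4-fold. With no change put in, 0 genes were called. Alternatives tried were DESeq2 1.42.0, limma-voom (limma 3.58.1), scaling by RLE, by upper quartiles or by library size, 2 other filters, an adjusted p under 0.01, glmTreat against 1.5-fold, removal of the 100 most abundant genes, counts of 10 in all 6 libraries, and each library left out in turn. Protein identity between paralogs was not analysed here; 50-base windows of GENCODE M21 transcripts were compared in its place.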

Additional observations from a re-analysis of the deposited data

How the results depend on the processing

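Leaving out each library in turn gave 16 to 17 of the 39 members higher, 9 to 11 lower and 8 to 9 higher on the chromosome 7 list, with 2717 to 3158 genes higher and 2539 to 3099 lower over all genes. With all libraries these were 16, 9 and 8, with 3146 genes higher and 3150 lower of 13353 tested. Tested against 1.5-fold with glmTreat, which asks for a larger change, 8 of the 39 members were higher (Trim12a, Trim12c, Trim14, Trim21, Trim30a, Trim30c, Trim30d and Trim56) and 2 lower (Trim9 and Trim26). Of all 13353 genes tested, 718 were higher and 301 lower. Requiring 10 counts in all 6 libraries left 5 genes of the chromosome 7 list higher, since the Trim30 genes then drop out. RLE or upper-quartile factors, library size alone, DESeq2 and limma-voom each gave 16 members higher, 9 lower and 8 on the chromosome 7 list. Of the same 13353 genes, those called under these ranged from 2787 to 3229 higher and from 2788 to 3731 lower, with 2787 and 3731 under library size alone. Using no filter also gave 16, 9 and 8. A filter of 1 CPM in 3 libraries gave 15 members higher, 9 lower and 7 on the chromosome 7 list, because Trim30d was then not tested. Of 582 fold changes of single members under alternatives, 552 kept direction and side of the threshold, 15 lost the call (all under glmTreat), 5 gained it and 10 changed sign, none of them called. With library size alone Trim23 was -0.0026 and Trim39 -0.015. With a library left out, Trim17 ranged from -0.33 to 0.16, Trim23 from -0.021 to 0.11, Trim39 from -0.030 to 0.064, Trim59 from -0.087 to 0.013 and Trim67 from -0.0080 to 0.39; the cause was not tested. Depth limits the Trim30 genes, whose Parental levels rest on 0 to 8 reads per library.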
